A study of Mus musculus with 8 samples.

Results

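Tight junctions seal the space between neighbouring epithelial cells and set which ions and how much fluid cross the layer. Their strands are built by claudins, a family of membrane proteins whose members differ in permeability, together with occludin. Cytoplasmic scaffold proteins such as ZO-1 anchor the strands to actin, and junctional adhesion molecules (JAMs) lie beside them. In the late fetal lung this barrier lines airspaces that are still full of liquid. The 10 genes described here are Cldn1, Cldn3, Cldn4, Cldn6, Cldn7, Cldn11, Cldn18, Ocln (occludin), Tjp1 (ZO-1) and F11r (JAM-A). They were taken as a named set, with every probe set annotated to exactly 1 of these symbols. Samples are named by embryonic day (E11.5 and E18.5). On the E18.5 array the rule gave 19 probe sets for 10 of 18193 named genes. On the older E11.5 array it gave 13 probe sets for 9 of 8251 genes, with no probe set for Cldn18.

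The series held 8 Affymetrix arrays of FVB/N mouse embryos. At E18.5 there were 3 lungs of MIA bitransgenic (double transgenic) embryos, labelled SP-C/MIA overexpressor, and 3 lungs of single transgenic littermate controls. The labels do not say which transgene the controls carried. At E11.5 there was 1 lung and 1 trachea, with no transgene named. SP-C is the surfactant protein C gene, whose promoter is active in lung epithelium, and MIA is a secreted protein first found in melanoma and cartilage. Nothing in the labels ties an array to 1 animal or a pool, so p-values measure the spread between these samples alone.

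All values are MAS5 signals, a linear brightness per probe set, and all 8 arrays had a 2% trimmed mean of about 1500. Median signals were 421 to 464 on the bitransgenic arrays and 415 to 460 on the control arrays, and 541 in E11.5 lung and 545 in E11.5 trachea. Mia itself, the overexpressed gene, read 31399, 42666 and 41546 in the bitransgenic lungs, against 1071, 1070.5 and 734 in controls. Arrays are numbered 1 to 3 here by their order in each group, so a shared number is no link between a bitransgenic and a control array. Averaged over the 5 other E18.5 arrays, Pearson correlations of log2 values were lowest for bitransgenic 3 (0.965) and control 3 (0.957) and lay between 0.971 and 0.975 for the other 4. The Actb 3' to 5' ratio, a sign of RNA quality, was 1.51 to 1.65 in the bitransgenic lungs and 1.28 to 1.501 in controls, so the groups did not overlap in it, by a narrow gap. The part of RNA quality in the results was not tested beyond the fits with this ratio as a term. Since the ratio itself separated the groups, those fits cannot tell its part from that of the group. Control 3 alone had the ratio of 1.28, so they also lean on that array. Signals of different probe sets are not on 1 scale, so the members are not ranked by level.

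Promoters are shown for Cldn6, the member with the largest E18.5 difference, for Cldn4, the other claudin whose E18.5 groups did not overlap, and for Cldn11, whose E11.5 probe sets disagreed, 1 of them with a ratio far from 0 that rests on a lung signal under the pseudocount and the filter. Each is the 250 bases before a RefSeq transcript start on GRCm38.p6, on the gene's strand. RefSeq's Cldn6 gene begins at 23679348, inside the end of its window. Cldn6 lies at chr17:23679115-23679364 (+ strand), Cldn4 at chr5:134946935-134947184 (- strand) and Cldn11 at chr3:31149670-31149919 (+ strand). Capitals mark CACCTG or its reverse complement CAGGTG, the E-box letters that repressors of the Snail and ZEB families are known to bind.
Cldn6: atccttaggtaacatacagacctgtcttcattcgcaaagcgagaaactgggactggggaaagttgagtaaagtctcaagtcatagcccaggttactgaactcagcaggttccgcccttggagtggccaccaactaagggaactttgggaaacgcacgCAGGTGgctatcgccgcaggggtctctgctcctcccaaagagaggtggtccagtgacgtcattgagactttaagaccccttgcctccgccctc
Cldn4: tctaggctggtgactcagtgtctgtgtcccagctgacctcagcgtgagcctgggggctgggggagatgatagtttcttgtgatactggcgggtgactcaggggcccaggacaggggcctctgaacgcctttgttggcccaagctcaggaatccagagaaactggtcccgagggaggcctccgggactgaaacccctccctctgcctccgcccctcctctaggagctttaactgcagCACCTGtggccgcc
Cldn11: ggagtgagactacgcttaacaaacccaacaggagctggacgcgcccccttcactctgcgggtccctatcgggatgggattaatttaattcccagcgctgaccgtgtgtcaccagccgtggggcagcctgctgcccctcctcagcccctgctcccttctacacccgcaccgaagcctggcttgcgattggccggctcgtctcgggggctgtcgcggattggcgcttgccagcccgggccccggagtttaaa

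The Cldn6 and Cldn4 windows hold 1 match each and the Cldn11 window holds none. Over the 13 windows that RefSeq gives for the 10 members, 5 hold the letters: those of Cldn4, Cldn6 and F11r and 1 of the pair for each of Cldn7 and Ocln. Of all 32851 windows of this length, 17.2% hold them. The letters AACCNGTT, a form of the site of Grainyhead-like factors, read on both strands, were in 0 of the 13 windows and in 1.79% of all. A match or its absence describes these letters in these windows and nothing more. Cldn3 and Cldn4 are neighbours on chromosome 5 (134986214 to 134987476 and 134945123 to 134946934).

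None of the members passed the test between MIA bitransgenic and control lungs at E18.5. The groups were compared by limma on log2(signal + 86.4), where 86.4 is the 20th percentile of the table and compresses changes of low signals. Of 12625 genes above the signal filter, 85 passed an adjusted p of 0.05 (Benjamini-Hochberg over all genes), which is 0.673% (0.238% higher and 0.436% lower in bitransgenic lungs). Of the 9 members tested, 0 passed that limma threshold and 1, Cldn6, had an unadjusted p under 0.05, where 9.69% of all genes did (4.53% higher and 5.16% lower). The groups did not overlap for 3 of the 9, with 2 higher and 1 lower in bitransgenic lungs, against 16.4% of all genes (8.86% higher and 7.56% lower). The median log2 change was 0.06 over the 9 members and 0.01 over all genes, with 5 members above 0 and 4 below it, while 52.6% of all genes were above 0. After adjusting for the Actb ratio the members' median was 0.12, with 6 above 0. Cldn11 lay under the filter, a mean signal of about 251, and was not tested.

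**Figure D1:**
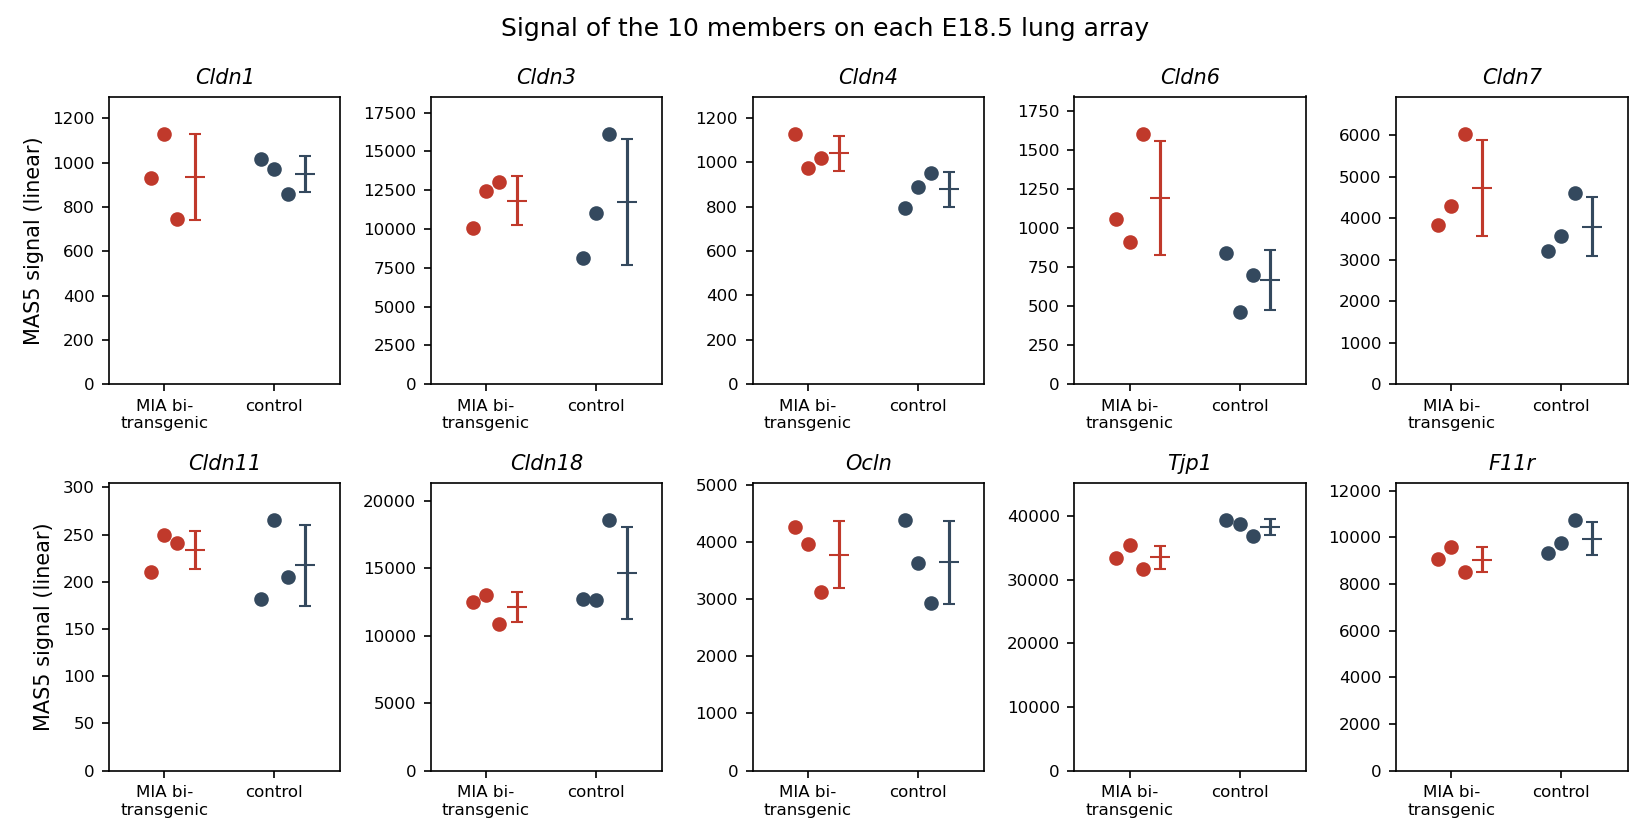
MAS5 signal (linear axis from 0) of the brightest probe set of each member on the 6 E18.5 arrays. Points are arrays, in red for MIA bitransgenic and dark blue for control lungs, and each bar beside them is the mean ± SD of 3 arrays. The groups separate for Cldn6, Cldn4 and Tjp1, with small gaps, and overlap for the other 7.

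Cldn6, a claudin of embryonic epithelium, had the largest difference. Its probe set read 1059, 909 and 1602 in bitransgenic lungs, against 839, 459.7 and 699 in controls. All bitransgenic values lay above all controls, with the lowest of them, bitransgenic 2, next to control 1. The means were 1190.1 ± 364 in bitransgenic lungs and 666 ± 192 in controls (SD, n = 3 each), a log2 change of 0.76 (SE 0.25, 95% interval 0.19 to 1.33, limma adjusted p = 0.347). Bitransgenic 3 held the highest value. Without it and control 3 the log2 change was 0.59 (limma adjusted p = 0.368, with 1.48% of all genes called). Adding the Actb ratio to the model gave 0.66 (limma adjusted p = 0.833, with 0.158% called). Cldn6 passed in 1 of 17 alternative fits, the one with array weights (limma adjusted p = 0.00908). In that fit 10.6% of all genes passed, and control 2, the array with the lowest Cldn6 signal, had a weight of 6.28 where the other 5 had 0.223 to 1.90.

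The 3 genes outside the set whose log2 values followed Cldn6 most closely over the 6 arrays were Inca1, Wwox and Pola1, with Pearson r of 0.993, 0.991 and 0.983. They were picked as the highest among the genes tested (12625 with the members). With so many genes and 6 arrays, high r values are no sign of a link to Cldn6. This is a description of 6 arrays that share a group difference. None of the 3 passed the test themselves, with log2 changes of 0.54, 0.42 and 0.17 (limma adjusted p = 0.543, 0.467 and 0.791).

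Cldn4, a claudin of many barrier epithelia that is known to increase in injured lung, read 1127, 973 and 1020 in bitransgenic lungs, against 794, 888 and 952 in controls. The groups did not overlap, and the gap between them, from 952 to 973, was smaller than the SD within either group (78.8 in bitransgenic and 79.8 in control lungs, n = 3 each). Cldn4 had a change of 0.23 on the log2 scale (SE 0.15, 95% interval -0.12 to 0.57, limma adjusted p = 0.722). It stayed positive in all 17 alternative fits, from 0.16 to 0.29.

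Cldn7, found along the lateral membrane of epithelial cells as well as at the junction, read 3842, 4285 and 6024 in bitransgenic lungs, against 3219, 3571 and 4602 in controls. The groups overlapped, with control 3 above the lower 2 bitransgenic values. On the log2 scale Cldn7 had a difference of 0.30 (SE 0.20, 95% interval -0.15 to 0.74, limma adjusted p = 0.72), and it ranged from 0.11 to 0.55 over the alternatives, the highest being the fit with the Actb ratio.

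Cldn18 and Cldn3 are major claudins of the alveolus, and loss of Cldn18 in mice is known to disturb the alveolar barrier. The brighter of both Cldn18 probe sets read 12508, 13042 and 10892 in bitransgenic lungs, against 12692, 12665 and 18553 in controls. Control 3 stood alone at the top, and the other 5 arrays lay between 10892 and 13042. The log2 change was -0.25 (SE 0.17, 95% interval -0.62 to 0.12, limma adjusted p = 0.721), and 0.01 without control 3 and bitransgenic 3. Adjusting for the Actb ratio turned it to 0.12. The second probe set read 3456, 3610.0 and 2886 in bitransgenic lungs, against 3292, 4058 and 5276 in controls, again highest on control 3. Its log2 change in the fit over 22593 probe sets was -0.32 (limma adjusted p = 0.663). All 11 alveolar type I genes tested had a log2 change below 0, with a median of -0.36. Of these 4 passed the adjusted limma threshold, where 0.436% of all genes passed as lower. Among the 11 the water channel gene Aqp5 fell by 3.65 (limma adjusted p = 0.000207), while Ager and Hopx had -0.32 and -0.15 (limma adjusted p = 0.235 and 0.784). Of 10 type II genes 8 were below 0 and 5 passed that threshold, each lower, with a median of -1.10. The surfactant protein gene Sftpa1 fell by 4.45 (limma adjusted p = 1.06e-06), while Sftpc and Etv5 had 0.0021 and 0.08 (limma adjusted p = 0.999 and 0.934).

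Cldn3 had 4 probe sets, all above the filter. The brightest read 10049, 12426 and 13013 in bitransgenic lungs, against 8137, 11018 and 16123 in controls. The controls ran from the lowest to the highest of the 6 values and enclosed the bitransgenic arrays. For this probe set the change was 0.06 on the log2 scale (SE 0.23, 95% interval -0.45 to 0.56, limma adjusted p = 0.968). The 4 probe sets had log2 changes of -0.22, 0.06, 0.00 and 0.20, with groups overlapping in each, and in all 4 control 3 was the highest array and control 1 the lowest. Leaving out control 1 turned the gene's change to -0.18 and leaving out bitransgenic 3 to -0.02, while leaving out bitransgenic 3 and control 3 together gave 0.24. The furthest value among the 17 alternatives was 0.61, with the Actb ratio as a term (limma adjusted p = 0.694).

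Cldn1, a claudin needed for the water barrier of skin, had 1 of 4 probe sets above the filter. It read 931, 1129 and 745 in bitransgenic lungs, against 1015, 973 and 859 in controls. The bitransgenic values lay on both sides of the controls, and the log2 change was -0.03 (SE 0.18, 95% interval -0.44 to 0.37, limma adjusted p = 0.977). The other 3 probe sets had mean signals between 14.7 and 254 in bitransgenic lungs and between 35.8 and 251 in controls, under the filter, which was set on mean log2 values. Cldn11, the claudin of myelin and of Sertoli cells, read 211, 249.8 and 241 in bitransgenic lungs, against 181, 265 and 206 in controls, with overlapping groups.

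Among the other membrane and scaffold members, Ocln overlapped between the groups on each of its probe sets. The brighter one read 4261, 3963 and 3123 in bitransgenic lungs, against 4385, 3635 and 2928 in controls. Bitransgenic 3 and control 3 were the lowest of their groups. Ocln had a difference of 0.06 on the log2 scale (SE 0.18, 95% interval -0.35 to 0.46, limma adjusted p = 0.961), and 0.15 for the second probe set (limma adjusted p = 0.86). Adjusting for the Actb ratio turned the gene's value to -0.21.

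Tjp1, which encodes the scaffold protein ZO-1, had the narrowest interval of the members tested. Its probe set read 33377, 35472 and 31740 in bitransgenic lungs, against 39386, 38726 and 36966 in controls. All bitransgenic values were below all controls. The log2 change was -0.19 (SE 0.10, 95% interval -0.42 to 0.03, limma adjusted p = 0.601), and from -0.24 to -0.15 over the 17 alternatives. F11r, which encodes JAM-A, read 9072, 9577 and 8513 in bitransgenic lungs, against 9337, 9782 and 10737 in controls. The groups overlapped, with a difference of -0.13 on the log2 scale (SE 0.12, 95% interval -0.40 to 0.13, limma adjusted p = 0.798), and its dimmer probe set had 0.06. With the Actb ratio as a term the value was 0.0062.

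**Figure D2:**
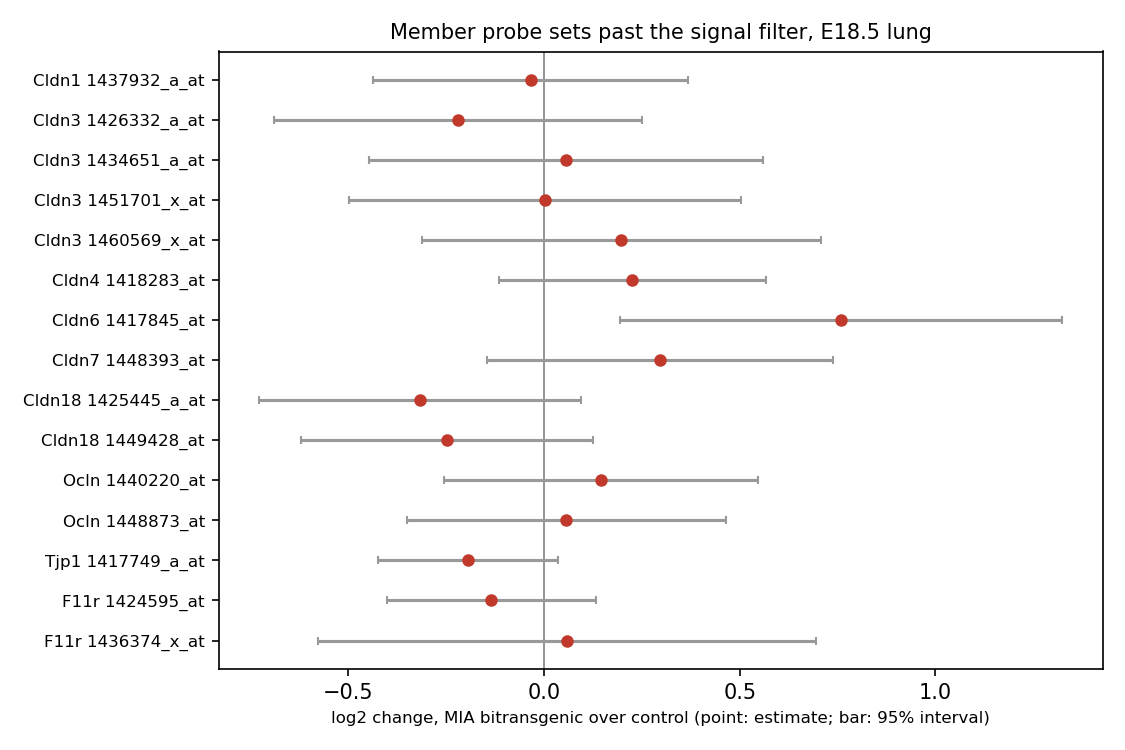
Log2 change (bitransgenic over control) of the 15 member probe sets above the signal filter, each named by gene and probe set identifier, from the limma fit over 22593 probe sets. Points are estimates and bars 95% intervals. Cldn6 has the 1 interval that lies wholly above 0, and the 4 Cldn3 probe sets fall on both sides of 0.

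Of the 15 member probe sets above the filter, 9 had a log2 change above 0 and 6 below it, where 51.4% of all probe sets were above 0. In limma 0 passed the adjusted threshold, which 0.487% of all probe sets did, and 1 had an unadjusted p under 0.05, which 9.34% of all did. The 95% intervals of the gene-level changes reached at most 1.33 for Cldn6 and 0.74 for Cldn7 upwards, and -0.62 for Cldn18 downwards. Differences within these intervals could not be resolved with 3 arrays per group.

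None of the other tight junction genes tested at E18.5 passed the adjusted threshold, and the largest differences among them were those of Pard6b and Cgn. Of the 45 other genes of 3 lists on this array, 36 were tested. Cytoplasmic plaque and polarity genes had 0 of 21 called by limma, with a median log2 change of -0.05, or 0.02 after adjusting for the Actb ratio. At an unadjusted limma p under 0.05, 2 were higher and 1 lower, where 4.53% and 5.16% of all genes were. Pard6b, a subunit of the PAR polarity complex, had a difference of -0.96 on the log2 scale (limma adjusted p = 0.0597). It read 2863, 4178 and 2525 in bitransgenic lungs, against 6200.0, 5844 and 6355 in controls, and its second probe set had -0.87. Pard6b passed in 3 of 17 alternative fits, with the mean of its probe sets (limma adjusted p = 0.0403), with array weights (limma adjusted p = 0.00474) and without bitransgenic 2 (limma adjusted p = 0.0257). After adjusting for the Actb ratio its change was -0.72 (limma adjusted p = 0.671).

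Cgn, which encodes the ZO-1 binding protein cingulin, read 3284, 3668 and 3983 in bitransgenic lungs, against 2419, 1755 and 2048 in controls. The groups were well apart, by 0.80 on the log2 scale (limma adjusted p = 0.0659), a value that stayed between 0.69 and 0.93 over the alternatives. Prkci, the atypical protein kinase C that binds PAR6 proteins, read higher by 0.56 on the log2 scale (limma adjusted p = 0.273), and by 0.20 after adjusting for the Actb ratio. Amot, an angiomotin, had -0.32 (limma adjusted p = 0.641), and -0.14 after that adjustment. Pard3, another PAR complex gene, was chosen after its values were seen. Its brightest probe set had -0.18, while a second read 3013, 2915 and 3648 in bitransgenic lungs, against 2263, 2134 and 2226 in controls, a log2 difference of 0.51 (limma adjusted p = 0.245).

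Among other membrane proteins of the junction, 0 of 9 were called by limma, and the median was 0.05, or 0.11 after adjusting for the Actb ratio. At an unadjusted limma p under 0.05, 2 were higher and 1 lower, where 4.53% and 5.16% of all genes were. Marveld3, of the same protein family as occludin, read higher by 0.58 on the log2 scale (limma adjusted p = 0.146), but 0.01 as the mean of its 3 probe sets. Cxadr, the coxsackievirus and adenovirus receptor, had 0.30 (limma adjusted p = 0.481). Its dimmer probe sets above the filter had 0.08, 0.17 and 0.25, with overlapping groups. The endothelial adhesion genes Esam and Jam2 had -0.58 and -0.33 (limma adjusted p = 0.27 and 0.568), and -0.16 and -0.51 after adjusting for the Actb ratio. A Jam2 probe set under the filter, chosen after its values were seen, read 24.0, 8.77 and 9.40 in bitransgenic lungs, against 258, 289 and 275 in controls. Of its 4 other probe sets, 1 had groups that did not overlap.

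Among 6 other claudins tested, 0 were called by limma, and the median was -0.01, or -0.12 after adjusting for the Actb ratio. At an unadjusted limma p under 0.05, 1 was lower, where 5.16% of all genes were. That gene was Cldn5, the claudin of endothelium, which read 9256, 11421 and 9648 in bitransgenic lungs, against 13785, 16131 and 16806 in controls. Cldn5 thus differed by -0.62 on the log2 scale (limma adjusted p = 0.092), and by -0.41 after adjusting for the Actb ratio (limma adjusted p = 0.719). With array weights Cldn5, Cgn, Prkci, Amot, Marveld3, Cxadr and Esam also passed. In that fit, which did not fully converge, 10.6% of all genes passed and control 2 had a weight of 6.28. Cldn22, Cldn15 and Cldn12 had -0.12, 0.15 and 0.09, with overlapping groups, and 0.07, 0.54 and -0.31 after the same adjustment.

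**Figure D3:**
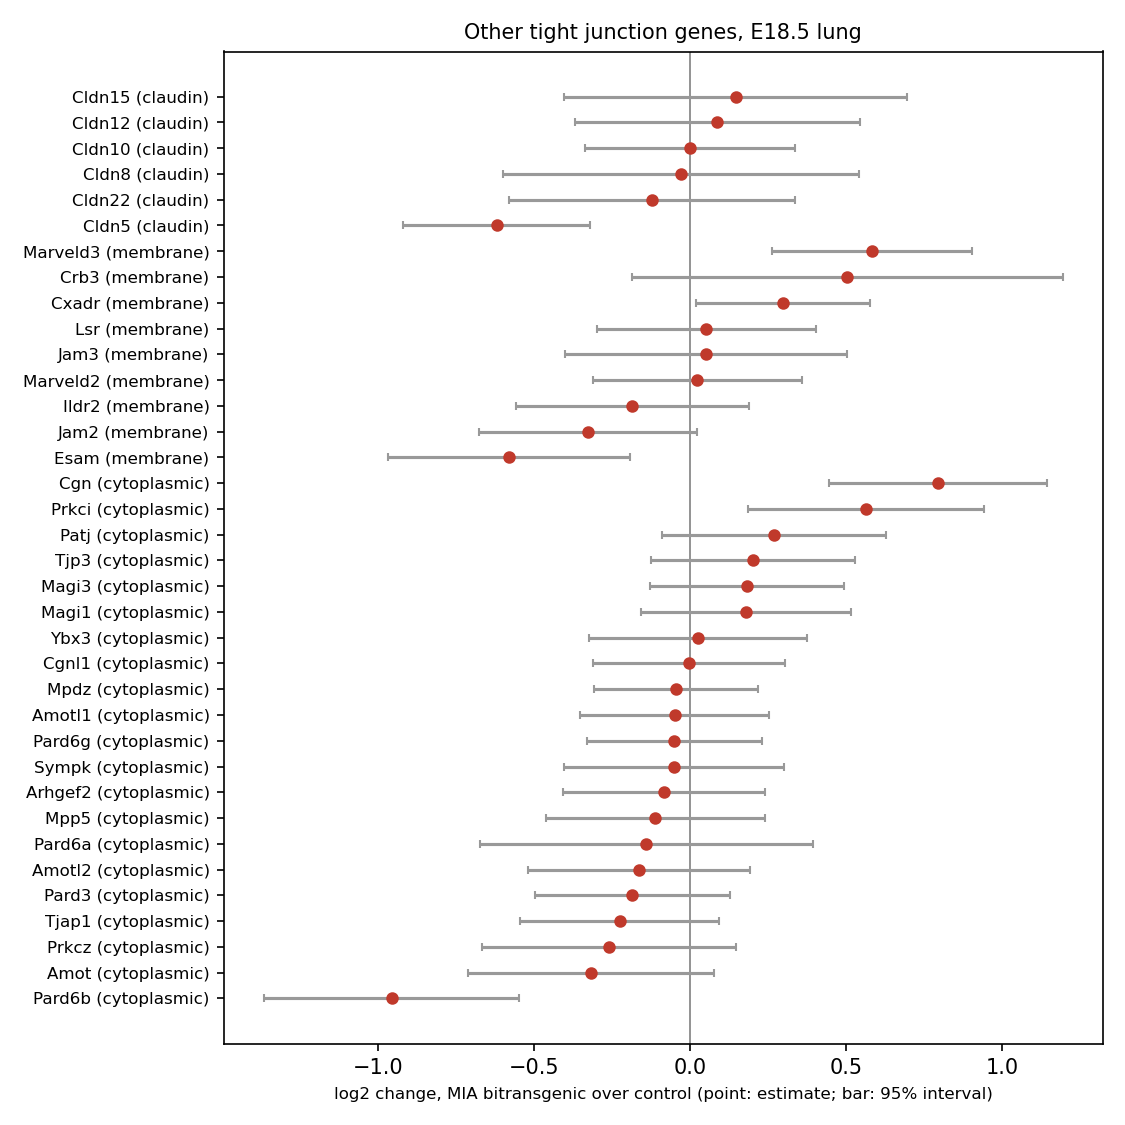
Log2 change (bitransgenic over control) of the 36 other tight junction genes tested at E18.5, grouped as claudins, membrane proteins and cytoplasmic proteins. Points are limma estimates and bars 95% intervals. Pard6b, Cldn5 and Esam lie furthest below 0 and Cgn, Marveld3 and Prkci furthest above it.

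Markers of the cells that hold these junctions are given beside the members, since in whole lung fewer cells of a type and less RNA per cell cannot be told apart. Of 15 pan-epithelial genes, 9 had a log2 change above 0 and 6 below, with 0 called by limma and a median of 0.24. At an unadjusted limma p under 0.05, 3 were higher and 2 lower, where 4.53% and 5.16% of all genes were. After adjusting for the Actb ratio 12 were above 0 and the median was 0.13. Their summed signal was 112644 to 124058 in bitransgenic lungs and 107811 to 120992 in controls, and no marker tested was near 0, the lowest reading being 1096. Such sums follow the brightest probe sets most, so they are no measure of cell content. Epcam had 0.63 (limma adjusted p = 0.378), and Krt7 and Krt19 had -0.50 and -0.48 (limma adjusted p = 0.233 and 0.304). With the Actb ratio as a term these were 0.13, -0.29 and -0.15. With array weights, where 10.6% of all genes passed, 4 of the list passed as higher and 2 as lower. The lower 2 were Krt7 and Krt19 (limma adjusted p = 0.00317 and 0.0146). Esrp1 was among the higher 4, at 0.28 (limma adjusted p = 0.0428). All 9 endothelial genes were below 0, with 0 called by limma and a median of -0.44. At an unadjusted limma p under 0.05, 7 of them were lower, where 5.16% of all genes were. With array weights 6 passed as lower. After adjusting for the Actb ratio 2 of the 9 were above 0 and the median was -0.16. The summed signal of the 9 was 58718 to 65580 in bitransgenic lungs and 76361 to 112552 in controls, with a lowest reading of 2216. Esam, given above, is 1 of these 9 genes. Cldn5, which is not on this list, was also below 0. The part of cell numbers in any of these differences was not tested.

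At E11.5, before alveoli exist, most members read higher in lung than in trachea, by less than 2-fold. With 1 array per tissue there was no test, and the ratios are on the log2(signal + 84.3) scale. Genes are called apart here if lung and trachea differed by over 2-fold and the brighter of both signals exceeded 543, the table's median. By that count 175 of 5114 genes (3.42%) were apart, with lung above trachea in 1.17% and trachea above lung in 2.25%, and 0 of 6 members were. Of the 7 members past the filter 6 had ratios above 0, with a median log2 ratio of 0.56, while 49.3% of all genes compared were above 0 and the median over all genes was -0.0016.

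**Figure D4:**
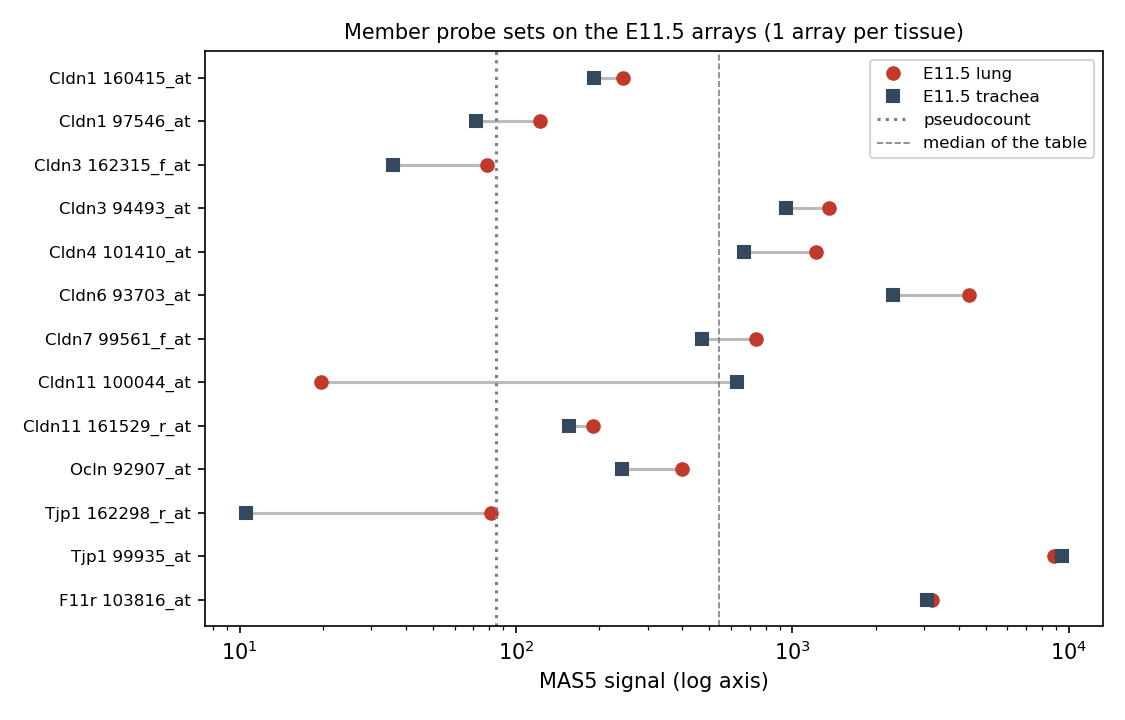
MAS5 signal (log axis) of the 13 member probe sets in E11.5 lung (red circles) and E11.5 trachea (dark blue squares), 1 array each, with the pseudocount dotted and the median of the table dashed. Lung is to the right for Cldn6, Cldn4, Cldn7, Cldn3 and Ocln, Tjp1 and F11r nearly coincide on their brighter probe sets, and 1 Cldn11 probe set is far to the right in trachea.

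Cldn6 had the largest ratio among members past the filter, at 4348 in lung and 2319 in trachea, a log2 ratio of 0.88. Cldn4 read 1217 in lung and 671 in trachea (0.78), and Cldn7 read 737 in lung and 472 in trachea (0.56). Cldn3 had 1362 in lung and 951 in trachea (0.48). Ocln had 399 in lung and 242 in trachea (0.57), below the median in each tissue, so it was not among the 6 compared. The junction scaffold and adhesion members were close to equal. Tjp1 read 8828 in lung and 9431 in trachea (-0.09, or 0.35 as the mean of its probe sets, of which the dimmer read 81.1 in lung and 10.6 in trachea), and F11r read 3191 in lung and 3067 in trachea (0.06).

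Cldn11 went the other way on 1 of its probe sets, with 19.8 in lung and 633 in trachea, a log2 ratio of -2.78 that depends on the pseudocount because the lung signal lies under it. Its mean was below the filter. The second Cldn11 probe set read 191 in lung and 156 in trachea, so the pair disagreed in direction. The Cldn1 probe sets read 245 and 122 in lung, against 192 and 71.7 in trachea, all below the median.

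Epithelial and mesenchymal markers also differed between the E11.5 samples. Of 7 pan-epithelial genes past the filter 6 read higher in lung, with a median log2 ratio of 0.34 and a summed signal of 9497 in lung and 7028 in trachea. All 8 mesenchymal genes read lower in lung, with a median of -0.56 and a summed signal of 45363 in lung and 66076 in trachea. These sums too follow the brightest probe sets most. Of 7 endothelial genes 3 read higher in lung, and the median over the list was -0.36. Pecam1 had 0.54, while Tie1, Cdh5 and Kdr had -0.71, -0.41 and -0.40. The endothelial claudin Cldn5 read 2695 in lung and 1711 in trachea (0.63). All 3 other membrane genes of the junction had ratios above 0, with 0.37 for Crb3, 0.28 for Lsr and 0.06 for Jam3. Of 9 cytoplasmic genes 5 were above 0, with a median of 0.06. Arhgef2, a junction-bound exchange factor, had 0.71 and Prkci 0.32, while Amot and Prkcz, another atypical protein kinase C, each had -0.34. The part of these markers in the members' ratios was not tested. The E11.5 and E18.5 arrays hold different probe sets, so levels were not compared between ages.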

How the data were processed

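Signals were made with MAS5, per the submitters' processing notes, which give no version. Both deposited tables hold intensity on a linear scale. Control probe sets were left out, 64 at E18.5 and 66 at E11.5. Names came from GEO's platform annotation, and probe sets with several symbols were not used. For each gene the probe set brightest on average, as log2(signal + pseudocount), was taken, and genes under the 40th percentile were dropped. The test was limma 3.58.1, run in R 4.3.3 (lmFit, eBayes with an intensity trend, two-sided), adjusted by Benjamini and Hochberg over all genes or all probe sets. Exact permutation of 3 against 3 arrays cannot give a p below 0.1. The fit was tested on simulated data. Alternatives covered normalization, pseudocount, filter, probe set choice, variance model, the Actb ratio and arrays left out. Members, lists and tests were chosen with earlier results of these data known. The naming rule took all members, and from each other list the genes past the threshold or else the 4 of lowest p (largest ratio at E11.5), of which the text gives those of the junction lists and a few markers. Promoters are from RefSeq, on GRCm38.p6, and all 10 members matched. Figures were drawn with matplotlib 3.10.9.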

Additional observations from a re-analysis of the deposited data

How the results depend on the processing

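Of the log2 changes of the 9 members under the alternatives at E18.5, 139 kept their sign and their side of the threshold. A further 12 changed sign and 1 crossed the threshold. With array weights 1 member passed (Cldn6) and in the other alternatives run none did. The number of genes called was 85 and ran from 22 to 97 with 1 array left out, and was 1339 with array weights, a fit that did not fully converge, 20 with the Actb ratio as a covariate and 187 without both arrays of lowest correlation. Of probe sets, 110 were called, with 30 to 101 when 1 array was left out, 2821 with array weights, 20 with the Actb ratio, 223 without both arrays of lowest correlation, 69 with no filter and 57 without the intensity trend. Signs that turned were all of changes that never passed. Array weights gave Cldn1 0.044 and Cldn12 -0.035. The Actb ratio gave Cldn18 0.12, Ocln -0.21, F11r 0.0062, Cldn22 0.067 and Cldn12 -0.31. Without both arrays of lowest correlation Cldn1 had 0.042, Cldn18 0.011 and Cldn12 -0.051. With 1 array left out Cldn1 ran from -0.17 to 0.11, Cldn3 from -0.18 to 0.31, Ocln from -0.088 to 0.20, Cldn22 from -0.20 to 0.010, Cldn15 from -0.026 to 0.35 and Cldn12 from -0.15 to 0.22. The causes were not tested. At E11.5 the 175 genes apart became 95 with 4 times the pseudocount, 78 with a filter at the 60th percentile and 735 at 1.5-fold. With no filter 1 member was apart (Cldn11), and at 1.5-fold 2 were (Cldn4 and Cldn6). No paired analysis was possible. The labels call the controls littermates but do not say which embryos shared a litter, and they give no replicate numbers. The fits therefore treat the arrays as unpaired and leave out any litter structure. The number of arrays limits the precision.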
